A study of Rattus norvegicus with 9 samples.

Results

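The aminoacyl-tRNA synthetases are described here in blood CD4+ T cells of rats with and without arthritis, as 36 genes out of 33439 gene units in the transcript tables. They were chosen by name: 20 genes of the cytosolic enzymes, and 16 genes of the mitochondrial enzymes, whose symbols end in 2. All 36 were found in the tables, and 34 reached a 9-library mean of 1 TPM and were tested (20 cytosolic and 14 mitochondrial; Ears2 and Lars2 lay below). TPM, the unit of the deposited tables, is corrected for transcript length, so levels can be compared between genes.

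The study asked about a combination of compounds in a rat model of rheumatoid arthritis. RNA sequencing was done on 3 groups of 3 libraries, all from peripheral blood CD4+ T cells of SD rats aged 8 to 10 weeks. The combination group was CIA rats treated for 4 weeks with the compounds, which the labels do not name, the model group was CIA rats without them, and the normal group was normal rats. CIA was read as collagen-induced arthritis because the series concerns rheumatoid arthritis. The labels do not describe how CD4+ cells were selected, nor whether each library came from its own animal. A p-value here sets a difference between groups against the spread of these libraries, which may not be the spread between animals. Sample names in the headers of the combination tables differ from GEO's labels, and groups follow the labels.

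A synthetase joins an amino acid to the tRNA that carries it to the ribosome, and as a rule each amino acid has its own enzyme. The cytosolic enzymes serve general protein synthesis, and several of them sit in a multisynthetase complex held together by Aimp1, Aimp2 and Eef1e1; the mitochondrial enzymes are encoded in the nucleus and serve the few proteins made inside mitochondria. When charged tRNA runs short, the kinase GCN2 raises translation of the transcription factor ATF4, which binds C/EBP-ATF response elements and is known to switch on amino acid transporters, amino acid synthesis and many cytosolic synthetases. Activated T cells take up amino acids in large amounts to grow and divide.

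The 5 members that rose in at least 1 comparison below were Cars, Iars, Aars, Mars and Yars, the enzymes for cysteine, isoleucine, alanine, methionine and tyrosine. Their promoters are printed because they can be searched for the ATF4 element. Each sequence is RefSeq's, from 250 bases before to 50 bases after the gene's start on the assembly GRCr8, written 5′ to 3′ on the gene's own strand. Capitals mark the motif TGATGNAA on either strand, which reads TTNCATCA on the other. RefSeq lists these genes as Cars1, Iars1, Aars1, Mars1 and Yars1, in that order, and the windows are chr1:208225320-208225619 (minus strand), chr17:15193603-15193902 (minus), chr19:55908232-55908531 (plus), chr7:65023704-65024003 (minus) and chr5:146819913-146820212 (plus).
Cars: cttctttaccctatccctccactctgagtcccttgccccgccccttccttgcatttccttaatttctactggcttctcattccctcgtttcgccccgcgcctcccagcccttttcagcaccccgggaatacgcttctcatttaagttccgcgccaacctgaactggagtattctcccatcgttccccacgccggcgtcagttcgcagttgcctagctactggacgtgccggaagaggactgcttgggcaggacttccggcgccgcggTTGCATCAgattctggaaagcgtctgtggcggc
Iars: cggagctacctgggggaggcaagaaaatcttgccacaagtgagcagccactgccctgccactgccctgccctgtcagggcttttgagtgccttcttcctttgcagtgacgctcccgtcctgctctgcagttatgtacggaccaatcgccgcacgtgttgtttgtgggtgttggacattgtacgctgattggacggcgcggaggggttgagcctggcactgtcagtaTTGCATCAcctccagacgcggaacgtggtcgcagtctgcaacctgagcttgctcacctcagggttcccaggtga
Aars: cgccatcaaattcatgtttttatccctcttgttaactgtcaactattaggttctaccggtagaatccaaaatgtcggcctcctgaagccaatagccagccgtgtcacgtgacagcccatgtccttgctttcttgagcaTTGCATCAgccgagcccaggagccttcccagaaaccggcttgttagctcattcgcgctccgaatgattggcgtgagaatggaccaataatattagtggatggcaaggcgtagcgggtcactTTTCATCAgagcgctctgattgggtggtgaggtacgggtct
Mars: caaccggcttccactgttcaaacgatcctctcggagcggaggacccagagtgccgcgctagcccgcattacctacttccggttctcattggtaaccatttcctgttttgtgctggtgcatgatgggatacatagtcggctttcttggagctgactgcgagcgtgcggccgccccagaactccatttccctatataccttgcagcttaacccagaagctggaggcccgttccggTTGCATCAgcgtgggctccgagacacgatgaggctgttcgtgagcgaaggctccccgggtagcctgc
Yars: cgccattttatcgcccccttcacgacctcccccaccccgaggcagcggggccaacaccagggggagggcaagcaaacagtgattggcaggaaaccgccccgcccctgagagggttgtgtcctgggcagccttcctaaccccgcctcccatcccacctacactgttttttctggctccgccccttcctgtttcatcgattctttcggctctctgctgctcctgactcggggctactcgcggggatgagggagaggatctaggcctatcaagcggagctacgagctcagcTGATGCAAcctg

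The match in Cars began 17 bases after the gene's start, in Iars 24 and in Mars 17 bases before it (positions -24 and -17), and in Yars at position 38, with the gene's first base as position 0. Aars held 2 matches, at positions -112 and 9. A promoter was found for 17 of the 20 cytosolic members (not for Dars, Gars and Rars), and 7 of the 17 (41.2%) held the motif. The other 2 were Nars and Tars, the enzymes for asparagine and threonine, which are shown with 10 bases on either side of the match at positions -14 and -27.
Nars: ctaggtgatcTGATGCAAcgcttcagtc
Tars: tggcgtcccgTTGCATCAgctggttagc

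Of the 16 mitochondrial promoters 0 held these letters, and of all 33469 promoters of the same length 1332 did (3.98%). A match is a run of letters, not a measured binding site, and no binding data were used.

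Aligned depth was 7.52 to 10.1 gigabases per library, and 86.7% to 89.0% of it lay in the listed transcripts; read counts are not given. T cell genes were abundant: the summed level of 11 CD4 T cell identity genes (of 12 listed) was 2937 to 3131 TPM in combination, 2481 to 3266 TPM in model and 3256 to 4066 TPM in normal libraries. Within this sum Cd3g ranged from 190 to 756 TPM in combination and from 245 to 879 TPM in normal libraries. Cd4 itself had 142, 121 and 98.1 TPM in combination, 76.5, 186 and 99.1 TPM in model and 202, 230 and 235 TPM in normal libraries. Every arthritic library thus lay below every normal one for Cd4 (limma adjusted p = 0.107 for combination and 0.0863 for model against normal rats). Summed levels of marker genes of other blood cells also differed between groups, and single genes could hold most of a sum. In combination libraries Lyz2 had a mean of 370 TPM, beside a mean monocyte sum of 455 TPM. Monocyte genes (6 of 7 listed were in the files) summed to 284 to 570 TPM in combination, 55.2 to 155 TPM in model and 22.8 to 130 TPM in normal libraries, and 6 platelet genes to 71.6 to 117, 20.5 to 38.7 and 13.9 to 34.6 TPM in the same order, with Ppbp, Itga2b and Gp9 under 1 TPM on average. Erythroid genes (6 of 7 listed) summed to 260 to 865 TPM in combination, 2407 to 16210 TPM in model and 58.9 to 1121 TPM in normal libraries, and 6 neutrophil genes to 4.60 to 8.41, 0.379 to 8.61 and 14.4 to 33.6 TPM, with Csf3r, Cxcr2, Mmp8 and Mpo under 1 TPM. NK cell genes summed to 73.3 to 98.5 TPM in combination, 43.5 to 67.9 TPM in model and 95.5 to 152 TPM in normal libraries, with Gzmb and Ncr1 under 1 TPM on average. The NK cell genes did not move alike. Klrb1a was highest in combination libraries, at 1.94 to 3.24 TPM, against 0.540 to 0.624 TPM in model and 0.0969 to 0.782 TPM in normal libraries. Prf1 overlapped in every comparison, while Klrk1 and Klrd1 were highest in normal libraries. The highest sum of any library over the CD8 T cell, B cell, plasma cell and dendritic cell lists was 27.5 TPM, for B cells in a normal library. These marker levels move with the comparisons below and their part in the synthetase differences was not tested; in bulk RNA a different mix of cells and a different RNA content per cell cannot be told apart. Model replicate 2 stood apart from model replicates 1 and 3 for many of the genes below, so values are given for each library and the main counts with and without it.

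As a family, the cytosolic enzymes were far more abundant than the mitochondrial ones. The 20 cytosolic genes summed to 1429, 1159 and 1017 TPM in combination replicates 1, 2 and 3, to 1259, 954 and 1382 TPM in the model replicates and to 822, 773 and 711 TPM in the normal replicates. Every combination and model library thus lay above every normal library in this sum, while combination and model libraries overlapped. The 16 mitochondrial genes summed to 167, 133 and 112 TPM in combination, 106, 140 and 111 TPM in model and 149, 140 and 120 TPM in normal libraries, and all 3 groups overlapped.

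By their mean over the 9 libraries the most abundant members served serine, lysine and asparagine. Sars was first in every group, while Aars was above Kars in combination and Farsa above Nars in normal libraries. Sars, the seryl-tRNA synthetase, had 231, 191 and 180 TPM in the combination libraries, 249, 147 and 242 TPM in the model libraries and 119, 117 and 116 TPM in the normal libraries. Nars had 133, 106 and 101 TPM in combination, 138, 81.2 and 152 TPM in model and 70.4, 69.8 and 59.0 TPM in normal libraries. For both genes the combination and model libraries overlapped, and all of them lay above the normal libraries. Kars, the lysyl-tRNA synthetase of both cytosol and mitochondria, had 108, 100 and 84.5 TPM in combination, 106, 109 and 124 TPM in model and 102, 103 and 93.0 TPM in normal libraries. Its combination and normal libraries overlapped, and its model libraries lay above the normal ones by a small margin. Averaged over the 9 libraries the levels were 177 TPM for Sars, 103 TPM for Kars and 101 TPM for Nars. The order of Kars and Nars differed between groups. Every normal value of Kars lay above every normal value of Nars, while in each combination library Nars was the higher. Among the model libraries Nars was the higher in replicates 1 and 3 and Kars in replicate 2. At the low end of the cytosolic members Qars was listed at 0 in most libraries, as described further on, and the next lowest by the mean over the 9 libraries were Farsb and Wars, with group means of 6.59 to 9.09 TPM and 9.28 to 10.7 TPM; in normal libraries Cars, at 8.38 TPM, lay between the pair.

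**Figure D1:**
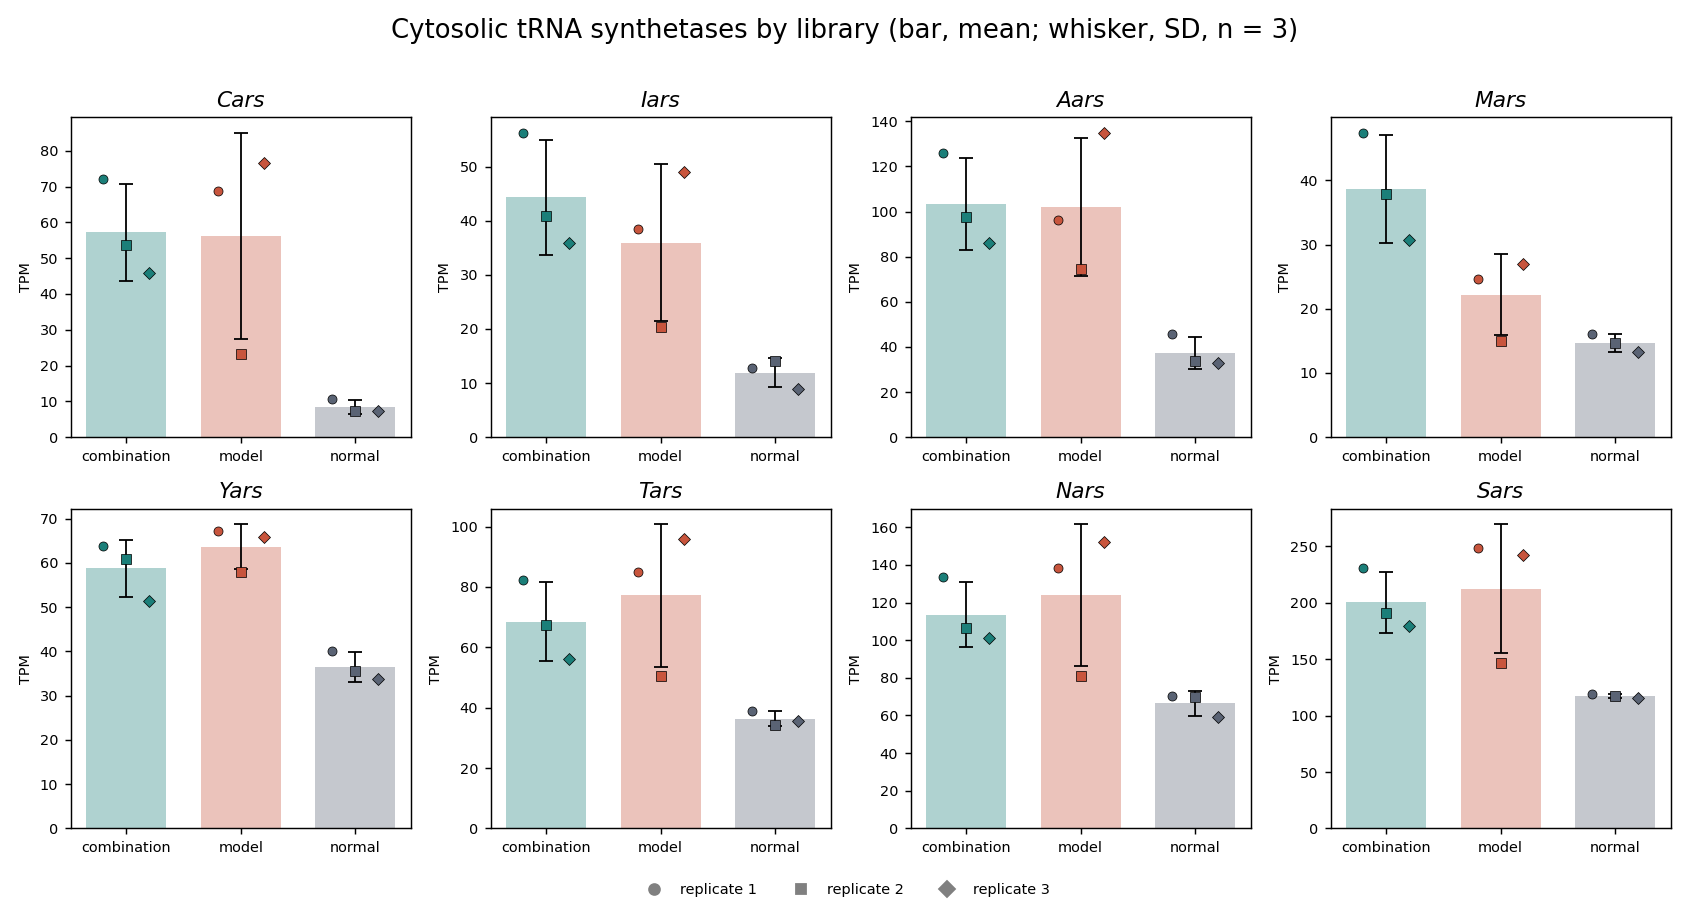
Levels of 8 cytosolic synthetase genes in TPM on linear axes from 0, with bars for group means, whiskers for SD (n = 3) and points for libraries, in combination, model and normal rats. Cars shows 45.9 to 72.3 TPM in combination, 23.3 to 76.6 TPM in model and 7.26 to 10.6 TPM in normal libraries, and model replicate 2 is the lowest model library in each panel.

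The first question was how arthritis without treatment differed from the normal state. Of the 20 cytosolic members, 4 rose in model rats (Cars, Aars, Yars and Iars), 0 fell, and 0 of the 14 mitochondrial members tested passed the threshold, an adjusted p under 0.05 in limma (0 were higher and 2 lower at an unadjusted p under 0.05). At that threshold limma called 4.01% of all 14252 genes tested, with 2.32% higher and 1.69% lower. The median log2 fold change of the cytosolic members was 0.39 and that of the mitochondrial members -0.19, against -0.0052 for all genes tested. The mitochondrial median was -0.13, -0.41 and -0.031 without model replicates 1, 2 and 3. Fold changes here and below are differences of log2(TPM + 1), which understates changes of low genes.

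Cars, the cysteinyl-tRNA synthetase (rn6 chr1:216759366-216801656), had 68.9, 23.3 and 76.6 TPM in model replicates 1, 2 and 3, against 10.6, 7.26 and 7.31 TPM in normal replicates 1, 2 and 3. All 3 model libraries lay above the normal ones, with replicate 2 much the lowest of them. The log2 fold change was 2.46 ± 0.41 (SE; limma adjusted p = 0.0248). Iars, the isoleucyl-tRNA synthetase of the multisynthetase complex (rn6 chr17:15355529-15402649), had 38.5, 20.3 and 49.0 TPM in model libraries and 12.8, 14.0 and 8.97 TPM in normal libraries. The groups did not overlap, and the log2 fold change was 1.45 ± 0.32 (limma adjusted p = 0.0438).

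Aars, the alanyl-tRNA synthetase (rn6 chr19:43193257-43215281), had 96.2, 74.7 and 135 TPM in model libraries and 45.6, 33.7 and 32.8 TPM in normal libraries. Its log2 fold change was 1.40 ± 0.24 (limma adjusted p = 0.0264). Yars, the tyrosyl-tRNA synthetase (rn6 chr5:147375350-147403571), had close values within each group, with 67.3, 57.8 and 65.9 TPM in model libraries and 40.2, 35.5 and 33.8 TPM in normal libraries. Neither gene's groups overlapped. The change of Yars was 0.79 ± 0.15 on the log2 scale (limma adjusted p = 0.0292).

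Several members lay close behind without passing. Tars, chosen for mention after its values were seen, had 85.0, 50.5 and 95.9 TPM in model libraries and 39.0, 34.4 and 35.6 TPM in normal libraries, with a log2 fold change of 1.02 ± 0.24 (limma adjusted p = 0.0513). For Sars the log2 fold change was 0.81 ± 0.21 (limma adjusted p = 0.0597) and for Nars 0.84 ± 0.24 (limma adjusted p = 0.0719). Kars differed by 0.18 ± 0.14 (limma adjusted p = 0.427). At an unadjusted p under 0.05, which 26.4% of all genes reached, 9 cytosolic members were higher and 0 lower in model rats. The model libraries lay wholly above the normal ones for 10 of the 20 cytosolic members and wholly below for 1, while 18.6% of all genes tested lay wholly above and 14.1% wholly below.

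The 4 calls between model and normal rats depended on the libraries present. Without model replicate 2, limma called 12 members, 9 cytosolic ones as higher (Aars, Cars, Eprs, Iars, Mars, Nars, Sars, Tars and Yars) and 3 mitochondrial ones as lower (Cars2, Nars2 and Vars2), among 2664 genes called in all. No member was called without model replicate 1, without model replicate 3 or without any of the 3 normal replicates, and 3, 1 and 3 were called without combination replicates 1, 2 and 3.

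The second question was how treated arthritic rats compared with normal rats. In this comparison, which shares its normal libraries with the one above, 5 of the 20 cytosolic members rose (Cars, Aars, Iars, Mars and Yars), 0 fell, and 0 of the 14 mitochondrial members tested were called; 0 mitochondrial members were higher and 4 lower at an unadjusted p under 0.05. Those 4 include Tars2, whose assembled transcripts did not count because its locus holds another gene name, as described further on. Limma called 3.62% of all genes tested, with 2.02% higher and 1.6% lower. The median log2 fold change was 0.73 for the cytosolic members, 0.11 for the mitochondrial members and 0.041 for all genes tested. The mitochondrial median changed sign without combination replicate 1 (-0.042), with assignment by exon overlap (-0.0068) and with reference transcripts only (-0.14), and was 0.27 without combination replicate 3. With reference transcripts only the cytosolic median was 0.16.

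Cars had 72.3, 53.7 and 45.9 TPM in combination replicates 1, 2 and 3, all above the normal values given earlier, with means of 57.3 ± 13.6 TPM in combination and 8.38 ± 1.90 TPM in normal libraries (SD, n = 3). The log2 fold change was 2.63 ± 0.41 (limma adjusted p = 0.0248). Aars had 126, 97.7 and 86.2 TPM in combination libraries and a log2 fold change of 1.44 ± 0.24 (limma adjusted p = 0.0293). Iars had 56.3, 40.9 and 35.9 TPM in combination libraries and a log2 fold change of 1.81 ± 0.32 (limma adjusted p = 0.0310). In all 3 genes the lowest combination library was above the highest normal one.

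Mars, the methionyl-tRNA synthetase of the multisynthetase complex, which also charges the initiator tRNA (rn6 chr7:70585013-70602310), had 47.4, 37.8 and 30.7 TPM in combination libraries, 24.6, 15.0 and 27.0 TPM in model libraries and 16.1, 14.7 and 13.3 TPM in normal libraries. The combination libraries lay above all others, and model and normal libraries overlapped through model replicate 2. Between combination and normal rats its log2 fold change was 1.32 ± 0.24 (limma adjusted p = 0.0327), and between model and normal rats 0.53 ± 0.24 (limma adjusted p = 0.201). Yars had 63.8, 61.0 and 51.4 TPM in combination libraries, and a log2 fold change over normal of 0.67 ± 0.15 (limma adjusted p = 0.0442).

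Next to these, Eprs, the bifunctional glutamyl-prolyl-tRNA synthetase, and Lars, the leucyl-tRNA synthetase, had log2 fold changes of 0.98 ± 0.25 and 0.78 ± 0.21 (limma adjusted p = 0.0602 and 0.0694), a pair named after their values were seen. Sars and Nars had 0.76 ± 0.21 and 0.76 ± 0.24 (limma adjusted p = 0.0693 and 0.0931), and Kars had -0.035 ± 0.14 (limma adjusted p = 0.902). In all, 12 cytosolic members were higher and 0 lower at an unadjusted p under 0.05, against 25.5% of all genes in either direction. The combination libraries lay wholly above the normal ones for 11 cytosolic members and wholly below for 1, beside 17.7% and 17.8% of all genes tested.

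Between treated and normal rats, no member was called without any of the 3 normal replicates or without combination replicate 1 or 2. The same 5 genes were called without combination replicate 3, and 4, 13 and 5 members without model replicates 1, 2 and 3, which enter only the estimate of the spread.

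**Figure D2:**
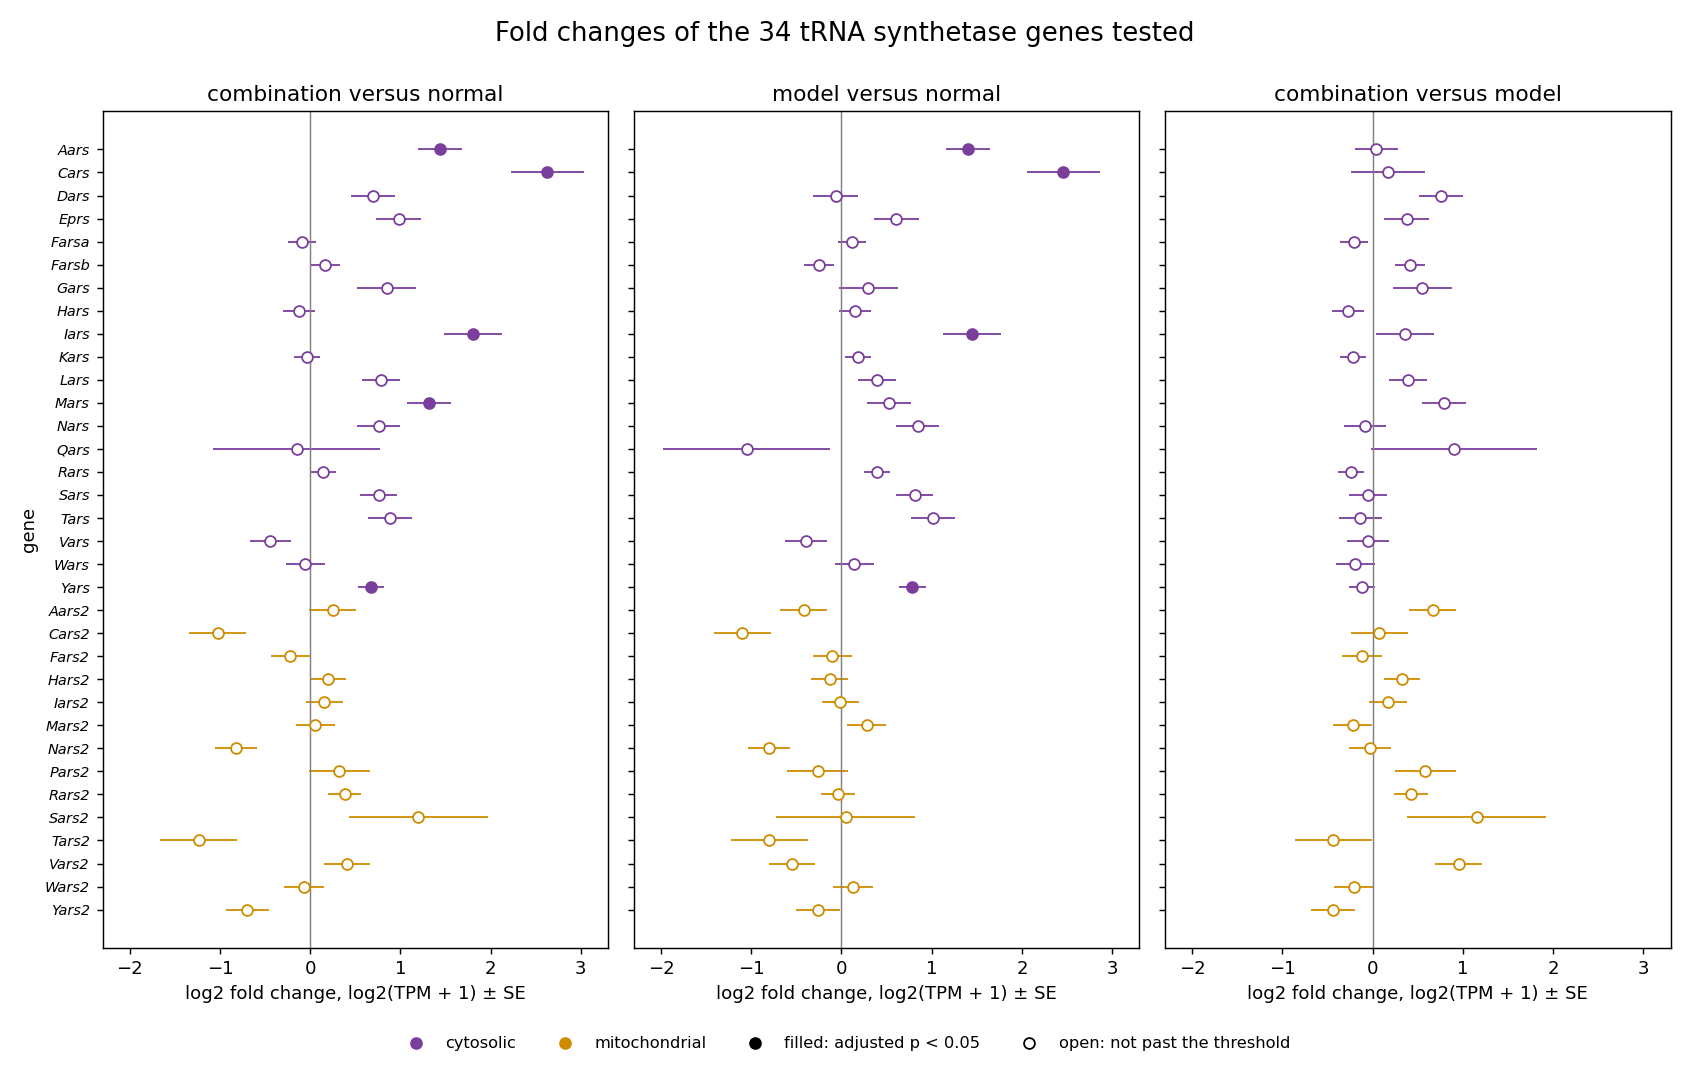
Log2 fold changes of log2(TPM + 1) with SE for the 34 members tested, cytosolic in purple and mitochondrial in orange, with filled points for a limma adjusted p under 0.05. The filled points are Aars, Cars, Iars, Mars and Yars for combination versus normal and Aars, Cars, Iars and Yars for model versus normal, and the panel of combination versus model has none.

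The third question was what the compounds changed in arthritic rats. Of the 34 members tested, limma called 0 between combination and model rats, while it called 4.15% of all genes, with 2.16% higher and 1.99% lower. At an unadjusted p under 0.05, 3 cytosolic and 3 mitochondrial members were higher in combination rats and 0 lower, beside 26% of all genes in either direction. The combination libraries lay wholly above the model ones for 4 cytosolic and 3 mitochondrial members and wholly below for 1 and 2, beside 13.7% and 13% of all genes tested. Sars2 among the 3 and Tars2 among the 2 lacked their assembled transcripts. When these were assigned by exon overlap, the combination and model libraries overlapped for both genes. The median log2 fold change was -0.0045 for the cytosolic members, 0.12 for the mitochondrial members and 0.029 for all genes tested. Leaving out 1 combination or model library moved these medians to between -0.14 (without model replicate 2) and 0.18 (without model replicate 3) for the cytosolic members, and to between 0.020 (without model replicate 1) and 0.35 (without model replicate 2) for the mitochondrial members, for which reference transcripts only gave -0.11.

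Among the genes called against normal rats, Cars differed between combination and model rats by 0.17 ± 0.41 on the log2 scale, Aars by 0.042 ± 0.24, Iars by 0.36 ± 0.32 and Yars by -0.12 ± 0.15 (SE; limma adjusted p of 0.829, 0.938, 0.520 and 0.654). These errors leave room for changes in either direction. The largest of the 5 differences was that of Mars, at 0.79 ± 0.24 (limma adjusted p = 0.0870), with the 3 combination libraries above the 3 model libraries. Among all members the smallest adjusted p was that of Vars2, the mitochondrial valyl-tRNA synthetase, singled out after its values were seen. It had 15.8, 12.9 and 9.90 TPM in combination libraries, 4.86, 9.07 and 4.96 TPM in model libraries and 8.99, 11.0 and 8.12 TPM in normal libraries. The combination libraries lay above the model ones, and the log2 fold change was 0.95 ± 0.26 (limma adjusted p = 0.0664). Without model replicate 2 limma called Vars2 and Pars2, the mitochondrial prolyl-tRNA synthetase, both as higher in combination rats; without any other single library it called no member.

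**Figure D3:**
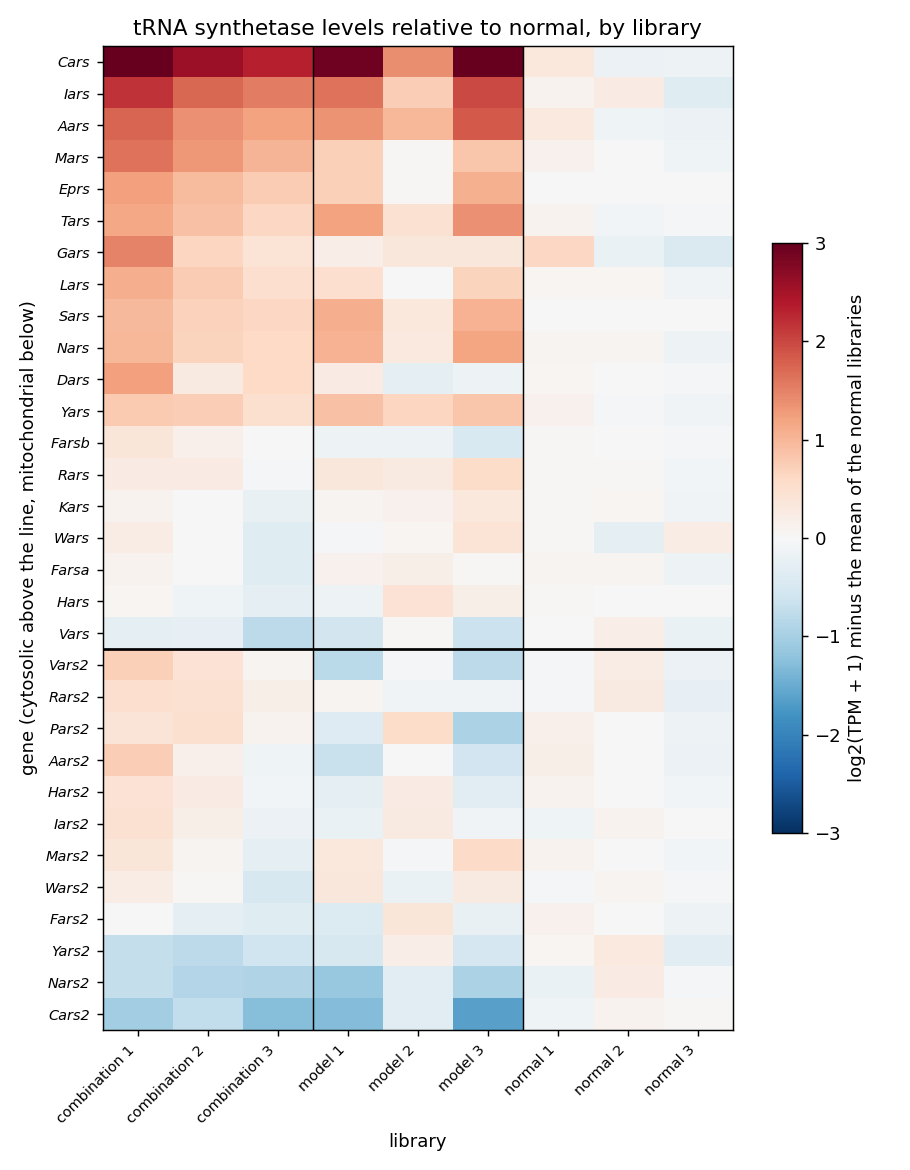
Each cell is the log2(TPM + 1) of a member in a library minus the mean of the 3 normal libraries, for the 31 tested members whose locus holds no other gene name, 19 cytosolic above the line and 12 mitochondrial below it; the colour scale ends at -3 and 3. Red fills the upper cytosolic rows in the combination libraries and model replicates 1 and 3, model replicate 2 is paler, and Nars2 and Cars2 in the lowest rows are blue.

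The cytosolic members did not move as 1 block. Of the 13 cytosolic synthetases known as ATF4 targets in other cells, 4 rose between model and normal rats and 5 between combination and normal rats, with median log2 fold changes of 0.79 and 0.85; between combination and model rats 0 were called, with a median of 0.042. Of the other 7 (Dars, Farsa, Farsb, Hars, Kars, Qars and Rars), 0 were called in any of the 3 comparisons by limma, with medians of 0.11 for model versus normal, -0.035 for combination versus normal and -0.21 for combination versus model. At an unadjusted p under 0.05, 8 of the 13 and 1 of the 7 were higher in model than in normal rats, 11 of the 13 and 1 of the 7 in combination than in normal rats, and 1 of the 13 and 2 of the 7 in combination than in model rats, with 0 lower. Of all genes tested 26.4%, 25.5% and 26% reached that level in these comparisons, in either direction, and 4.01%, 3.62% and 4.15% passed the threshold. The summed level of the 13 was 1040, 828 and 729 TPM in combination, 910, 594 and 1010 TPM in model and 484, 444 and 413 TPM in normal libraries. That of the other 7 was 389, 331 and 288 TPM in combination, 349, 360 and 372 TPM in model and 338, 329 and 298 TPM in normal libraries. The lists were drawn up with earlier results of these data known, and their difference was not tested.

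The calls were also counted by membership of the multisynthetase complex and by enzyme class, and the differences between these lists were not tested. Of the 8 synthetases of the complex, 1 rose in model rats (Iars) and 2 rose in combination rats (Iars and Mars), both against normal rats, with median log2 fold changes of 0.39 and 0.74. Of the 12 free cytosolic enzymes 3 rose in each of these comparisons, with medians of 0.54 and 0.71. Leaving out Eprs, which joins both kinds, among the 9 class I enzymes, which include Cars, Iars, Mars and Yars, 3 rose in model and 4 in combination rats against normal rats. Among the 10 class II enzymes, whose active site has a different fold, 1 rose in both comparisons, namely Aars. Of all genes tested 2.32% rose in model and 2.02% in combination rats against normal rats.

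Among the mitochondrial enzymes the most abundant by the mean over the 9 libraries were Hars2, Mars2 and Fars2, at 29.8, 20.2 and 13.4 TPM. Hars2 and Mars2 led in every group, while in combination libraries Vars2, at 12.9 TPM, was above Fars2, at 12.2 TPM. Hars2, for histidine, had 39.7, 34.2 and 27.1 TPM in combination, 23.3, 34.5 and 22.8 TPM in model and 31.0, 28.7 and 27.2 TPM in normal libraries. Mars2, for methionine, had 23.8, 19.6 and 14.9 TPM in combination, 23.1, 17.6 and 27.6 TPM in model and 19.6, 18.1 and 17.3 TPM in normal libraries. Fars2, for phenylalanine, had 14.2, 11.5 and 10.8 TPM in combination, 10.4, 18.5 and 12.0 TPM in model and 15.8, 14.5 and 12.7 TPM in normal libraries. For all 3 genes the groups overlapped in every comparison, and the 9 log2 fold changes lay between -0.22 and 0.33.

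Cars2 and Nars2, the mitochondrial enzymes for cysteine and asparagine, were lower in both arthritic groups without passing the threshold in the fit reported here. Some alternative fits called them, as given further on. Both genes were singled out after their values were seen. Cars2 had 1.75, 2.38 and 1.33 TPM in combination libraries, 1.29, 3.46 and 0.819 TPM in model libraries and 4.18, 5.06 and 4.80 TPM in normal libraries. Nars2 had 6.93, 6.11 and 5.96 TPM in combination libraries, 4.90, 9.49 and 5.73 TPM in model libraries and 10.4, 14.4 and 11.5 TPM in normal libraries. In both genes every arthritic library lay below every normal library. For Cars2 the log2 fold change was -1.02 ± 0.32 in combination and -1.10 ± 0.32 in model rats against normal rats (limma adjusted p = 0.0926 and 0.0780). For Nars2 it was -0.83 ± 0.23 in combination and -0.80 ± 0.23 in model rats (limma adjusted p = 0.0741 and 0.0808). In each comparison with normal rats the tested mitochondrial members lay wholly above for 0 genes, and wholly below for 4 of the 14 in combination and 2 of the 14 in model rats, beside 17.8% and 14.1% of all genes tested.

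A synthetase for a given amino acid could thus differ between its cytosolic and mitochondrial form. Cars stood at 41.3, 22.6 and 34.4 times the TPM of Cars2 in combination libraries, at 53.4, 6.73 and 93.5 times in model libraries and at 2.53, 1.43 and 1.52 times in normal libraries. Nars stood at 19.3, 17.4 and 16.9 times the TPM of Nars2 in combination, 28.3, 8.55 and 26.6 times in model and 6.80, 4.85 and 5.12 times in normal libraries. The arthritic libraries lay above the normal ones in both ratios, with model replicate 2 the lowest of them. Mars stood at 1.99, 1.93 and 2.07 times the TPM of Mars2 in combination, 1.06, 0.852 and 0.980 times in model and 0.821, 0.812 and 0.772 times in normal libraries. Here the 3 groups lay wholly apart, with combination highest and narrow ranges within each group. Vars stood at 1.46, 1.86 and 1.63 times the TPM of Vars2 in combination, 3.95, 3.21 and 3.61 times in model and 3.19, 3.01 and 3.04 times in normal libraries, and here the combination libraries were the lowest. These 4 of the 10 pairs were picked after their values were seen, and the ratios were not tested. The 10 pairs are those with both genes tested and no other gene name in either locus, which leaves out the pairs of Lars, Sars and Tars. By exon overlap the log2 fold changes between model and normal rats were 1.41 for Lars2, 0.064 for Sars2 and -0.54 for Tars2. Those of Lars, Sars and Tars were 0.39, 0.81 and 1.02. Over all 10 pairs the ratio of cytosolic to mitochondrial form lay wholly higher for 9 and wholly lower for 0 in model against normal libraries, higher for 6 and lower for 2 in combination against normal libraries, and higher for 1 and lower for 3 in combination against model libraries. Of single genes tested, 18.6% lay wholly higher and 14.1% wholly lower in the first of these comparisons. The shares were 17.7% and 17.8% in the second and 13.7% and 13% in the third. Shares for ratios of other gene pairs were not computed, so how unusual these counts are cannot be told. The neighbours Hars and Hars2 start head to head on rn6 chromosome 18, and their RefSeq promoter windows overlap by 243 bases. The ratio of Hars to Hars2 was 1.02, 1.04 and 1.16 in combination, 1.49, 1.54 and 1.94 in model and 1.28, 1.34 and 1.42 in normal libraries, with the 3 groups apart.

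Which transcripts carried a gene's TPM mattered for the calls. The tables list reference transcripts and transcripts assembled from the reads, and assembled ones held 92.7% of the TPM of Iars, 95.8% of Mars, 68.9% of Aars, 64.4% of Cars and 14.6% of Yars. With reference transcripts only, limma called Yars alone among the members, in both comparisons with normal rats: its log2 fold change was 0.94 ± 0.14 in model and 0.76 ± 0.14 in combination rats (limma adjusted p = 0.0315 and 0.04997). The reference transcript of Cars had 34.7 ± 7.04 TPM in combination, 5.71 ± 6.85 TPM in model and 2.97 ± 3.56 TPM in normal libraries (SD, n = 3). Its longest assembled transcript, of 3751 bases, had 10.3 ± 2.17 TPM in combination, 29.5 ± 23.4 TPM in model and 3.48 ± 0.90 TPM in normal libraries. The combination and model groups thus reached similar Cars totals from different transcripts as StringTie divided the reads, a division that was not tested. For Aars, which lies on the minus strand, 1 assembled transcript that runs past the gene's annotated 3′ end, to rn6 position 43158999, had 17.8 ± 30.9 TPM in model libraries and 0 in combination and normal libraries. A spread of that size means that 1 model library held nearly all of it. All 8 Mars transcripts had their highest mean in combination libraries, and 2 assembled ones, of 3773 and 6363 bases, held most of the TPM in each group.

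Members whose locus holds another gene name were affected by the rule, under which assembled transcripts count only where the locus has a single name. These were Qars (with Qrich1), Ears2 (Gga2), Lars2 (Limd1), Sars2 (Ccer2) and Tars2 (Rprd2). Qars was listed at 5.47, 0 and 0.00617 TPM in combination, 0 in all 3 model and 7.88, 0 and 0 TPM in normal libraries. When assembled transcripts were assigned by exon overlap, it had 53.9, 60.6 and 38.1 TPM in combination, 59.7, 47.5 and 40.9 TPM in model and 45.8, 47.2 and 44.4 TPM in normal libraries, and the groups overlapped. Lars2, the mitochondrial leucyl-tRNA synthetase, then had 11.2, 10.5 and 8.82 TPM in combination, 9.41, 7.46 and 10.7 TPM in model and 6.57, 1.95 and 1.48 TPM in normal libraries. Every arthritic library was above every normal one, and in that fit Lars2 rose between combination and normal rats, with a log2 fold change of 1.55 ± 0.37 (limma adjusted p = 0.0477), while the value for model against normal rats was 1.41 ± 0.37 (limma adjusted p = 0.0580). For Ears2, Sars2 and Tars2 the smallest of the 9 adjusted p-values in that fit was 0.221.

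Genes that work beside the synthetases were looked at from lists. Of 26 other amino acid response targets of ATF4 in the files, 21 were tested; 4 rose and 0 fell in model against normal rats (Trib3, Slc7a5, Chac1 and Slc7a1), with a median log2 fold change of 0.79. Between combination and normal rats 2 rose (Phgdh and Chac1) and 0 fell, with a median of 0.61. Between combination and model rats 0 rose and 1 fell (Trib3), with a median of -0.14. Limma called 4.01%, 3.62% and 4.15% of all genes tested in these comparisons, in the same order. With reference transcripts only, the calls of Chac1 and Slc7a1 in model rats (limma adjusted p = 0.0505 for both) and of Phgdh and Chac1 in combination rats (limma adjusted p = 0.0664 and 0.0823) ended, while those of Trib3 and Slc7a5 held.

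Trib3, a pseudokinase that restrains ATF4, had 21.6, 14.7 and 17.3 TPM in combination, 55.5, 35.6 and 90.5 TPM in model and 12.9, 12.8 and 12.2 TPM in normal libraries. The model libraries lay above all others. Its log2 fold change was -1.62 ± 0.30 between combination and model rats and 2.07 ± 0.30 between model and normal rats (limma adjusted p = 0.0328 and 0.0183). Slc7a5, the light chain of the large neutral amino acid transporter, had 126, 93.3 and 91.0 TPM in combination, 231, 144 and 435 TPM in model and 68.0, 38.6 and 40.3 TPM in normal libraries. The 3 groups did not overlap. Its log2 fold change was -1.24 between combination and model rats (limma adjusted p = 0.0865) and 2.34 between model and normal rats (limma adjusted p = 0.0240).

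Between model and normal rats Chac1, which degrades glutathione, had a log2 fold change of 2.18 (limma adjusted p = 0.0314), and Slc7a1, a transporter of arginine and lysine, of 1.38 (limma adjusted p = 0.0348). Chac1 also rose between combination and normal rats, by 1.85 (limma adjusted p = 0.0488), as did Phgdh, the first enzyme of serine synthesis, by 0.96 ± 0.15 (limma adjusted p = 0.0268). Atf4 itself, whose control is largely translational, had 517, 459 and 474 TPM in combination, 570, 553 and 743 TPM in model and 661, 643 and 584 TPM in normal libraries. The combination libraries were the lowest for Atf4, and neither comparison with them passed the threshold (limma adjusted p = 0.154 against model and 0.134 against normal rats). The motif TGATGNAA or TTNCATCA lay in 5 of the 23 promoters found for this list of 27 (21.7%), namely those of Trib3, Chac1, Slc7a1, Nupr1 and Pycr1.

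**Figure D4:**
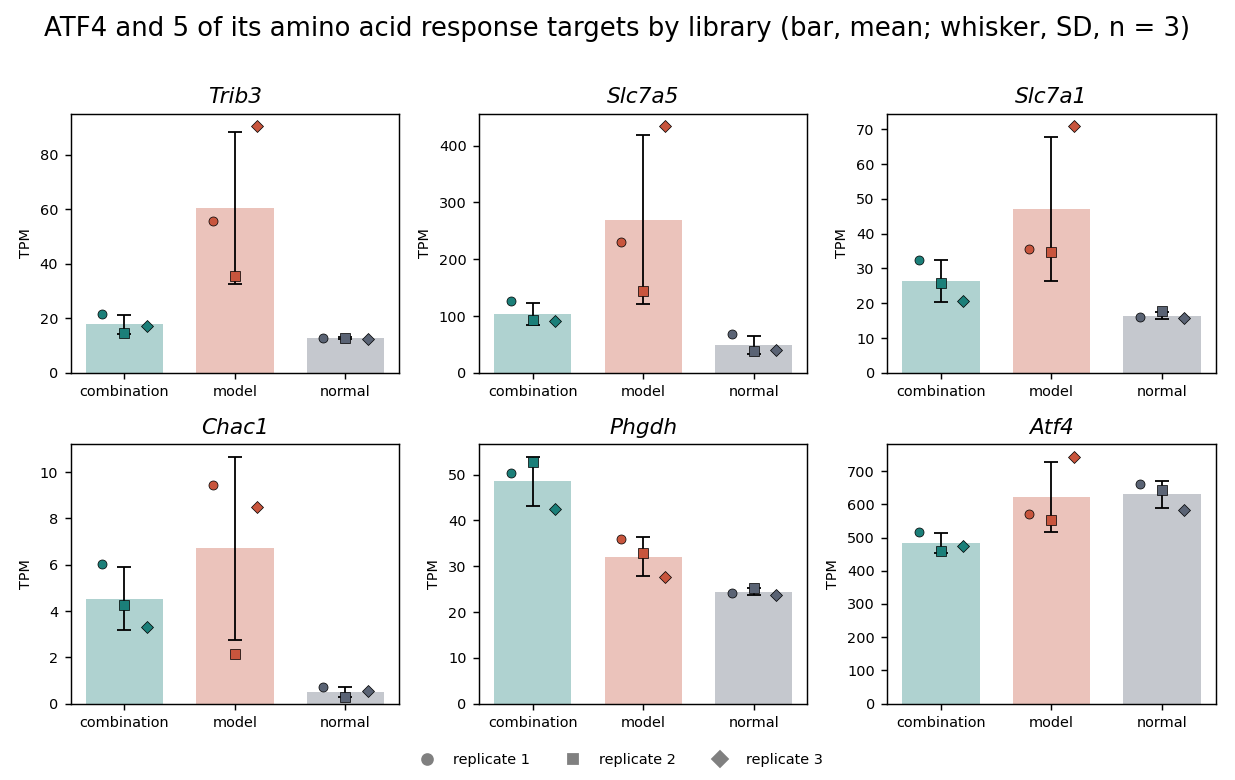
Levels of Atf4 and 5 of its amino acid response targets in TPM on linear axes from 0, with bars for group means, whiskers for SD (n = 3) and points for libraries. Trib3 is highest in the model libraries, at 35.6 to 90.5 TPM, against 14.7 to 21.6 TPM in combination and 12.2 to 12.9 TPM in normal libraries, while Phgdh is highest in the combination libraries.

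Among the scaffold genes of the multisynthetase complex 1 fell between combination and model rats. Aimp2, which bridges the complex, had 20.8, 19.1 and 16.0 TPM in combination, 36.9, 37.3 and 35.1 TPM in model and 30.5, 30.0 and 24.5 TPM in normal libraries. The 3 groups did not overlap, with combination lowest and model highest. Between combination and model rats it fell by 0.94 ± 0.15 on the log2 scale (limma adjusted p = 0.0266); against normal rats the log2 fold changes were -0.58 ± 0.15 for combination and 0.36 ± 0.15 for model rats (limma adjusted p = 0.0657 and 0.180). Of the 3 scaffold genes it was the only one called in any comparison, and the medians were -0.52 for combination versus model, 0.36 for model versus normal and -0.27 for combination versus normal.

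Further along the pathway, Eif2ak4, which encodes GCN2, had 5.87, 4.72 and 4.15 TPM in combination, 2.62, 1.64 and 2.23 TPM in model and 3.27, 4.48 and 3.96 TPM in normal libraries. The model libraries lay below all others, and between combination and model rats it rose by 0.90 ± 0.20 on the log2 scale (limma adjusted p = 0.0460). It was the only call among 7 GCN2 pathway genes tested in the 3 comparisons. Eef1d, a subunit of the elongation factor 1 complex that takes up charged tRNA, had 174, 162 and 156 TPM in combination, 217, 242 and 243 TPM in model and 271, 257 and 258 TPM in normal libraries. The combination libraries were the lowest, and Eef1d fell by 0.51 ± 0.11 between combination and model rats and by 0.67 ± 0.11 between combination and normal rats (limma adjusted p = 0.0469 and 0.0293), although with reference transcripts only both calls ended, at -0.48 and 0.26 (limma adjusted p = 0.724 and 0.859). The other 6 elongation and export genes tested were not called. Limma called 0 of 7 trans-editing and deacylase genes and 0 of 10 other genes of aminoacyl-tRNA formation in each of the 3 comparisons. At an unadjusted p under 0.05, between 2 and 3 of the 7 and between 1 and 3 of the 10 differed in a comparison. Of all genes tested 25.5% to 26.4% reached that level, and limma called 3.62% to 4.15%, depending on the comparison.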

How the data were processed

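Total RNA of CD4+ T cells was isolated with Trizol and made into libraries with an NEBNext Ultra RNA kit, per the labels' protocols. Reads were converted with bcl2fastq and aligned with HISAT2 to build rn6 by the authors, per the submitters' processing notes; both versions are not given in the sources used here. StringTie 1.3.3b then quantified 1 merged transcript set in each library, per the file headers. The deposited tables hold coverage, FPKM and TPM for 80092 transcripts, of which 41066 are reference and 39026 assembled. They hold no read counts, and counting intervals could not be computed.

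A gene's TPM was the sum over its reference transcripts and the assembled transcripts whose locus holds only its name. The 5653 assembled transcripts in loci of several names, with 4.28% of TPM, entered no member. Depth came from the ratio of coverage to FPKM. Of 33439 gene units, 14252 with a mean of 1 TPM or more entered 1 limma 3.58.1 fit in R 4.3.3 of log2(TPM + 1), with a coefficient per group and an intensity trend (degrees of freedom: 6 residual, 3.21 prior), and Benjamini-Hochberg adjustment over all of them at 0.05. The fit was also run on simulated data, with an outcome that is not reported here. Adjusted p-values come from limma throughout. Python 3.11.15, numpy 2.4.6, pandas 2.3.3 and matplotlib 3.10.9 did the rest.

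The members and lists were chosen with earlier results of these data known. By rule, statistics are given for members past the threshold, and values by library for these and for the 3 most abundant cytosolic and mitochondrial members; of related lists, up to 4 genes past the threshold, otherwise those of smallest p, are named. Libraries with the same number did not pair: their residuals correlated at -0.12 to 0.066, and 2 of 9 libraries correlated best with their own number. In 21 alternative fits the pseudocount was 0.1 or 5, the filter was absent or set at 5 TPM, FPKM or median-ratio scaling was used, TPM was rescaled without ribosomal protein, mitochondrially encoded and haemoglobin genes, reference transcripts stood alone, shared loci were assigned by exon overlap, 2 groups were fitted at a time, the trend was dropped, replicate numbers formed a block, or 1 of the 9 libraries was left out.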

Additional observations from a re-analysis of the deposited data

How the results depend on the processing

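In the fit as reported, 4 members passed between model and normal rats, 0 between combination and model rats and 5 between combination and normal rats, among 572, 592 and 516 genes. Counts below keep this order of comparisons. The pseudocounts, the filter at 5 TPM, no intensity trend and assignment by exon overlap kept the member counts within 4 to 5, at 0 and within 4 to 6. Members called numbered 0, 0 and 1 with no filter, 7, 2 and 9 with FPKM, 6, 1 and 6 with median-ratio scaling, 5, 2 and 9 without ribosomal protein, mitochondrially encoded and haemoglobin genes, 1, 0 and 1 with reference transcripts only, and 0, 0 and 12 when only the 2 groups compared were fitted. With FPKM and with median-ratio scaling, Nars2 was called as lower in both comparisons with normal rats. Cars2 and Nars2 were the 2 members called as lower among the 12. All genes called numbered 83, 246 and 188 with no filter; 474, 388 and 311 with the filter at 5 TPM; 1062, 1306 and 1181 with FPKM; 1295, 1563 and 1415 with median-ratio scaling; 1055, 1422 and 1256 without ribosomal protein, mitochondrially encoded and haemoglobin genes; 168, 138 and 88 with reference transcripts only; and 71, 28 and 1235 with only the 2 groups compared. Between combination and model rats the genes called split into 308 higher and 284 lower as reported, 594 and 969 with median-ratio scaling, and 938 and 484 without ribosomal protein, mitochondrially encoded and haemoglobin genes; between combination and normal rats the split was 288 and 228 as reported and 598 and 817 with median-ratio scaling.

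The replicate number as a block left 1 member called between model and normal rats (Cars) and 0 in the other comparisons, among 87, 12 and 21 genes called. The numbers share nothing that the labels describe, and 2 of 9 libraries correlated best with their own number.

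Leaving out 1 library gave 0 to 12, 0 to 2 and 0 to 13 members called, among 18 to 2664, 39 to 1196 and 23 to 1476 genes; the highest values came without model replicate 2. In the same fits the log2 fold change changed sign for Fars2 (-0.33 to 0.060) between model and normal rats, for Nars (-0.36 to 0.088), Sars (-0.30 to 0.082), Aars (-0.16 to 0.26), Cars (-0.36 to 0.47) and Fars2 (-0.28 to 0.11) between combination and model rats, and for Mars2 (-0.095 to 0.23) and Kars (-0.11 to 0.064) between combination and normal rats. None of these was called as reported.

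With reference transcripts only, the median of the cytosolic members between combination and normal rats was 0.16. In that fit Iars (-0.75), Fars2 (0.33), Hars2 (0.19) and Eef1d (0.74) changed sign between model and normal rats, Aars (-0.95), Sars (0.13) and Hars2 (-0.13) between combination and model rats, and Aars (-0.0078), Kars (0.034) and Eef1d (0.26) between combination and normal rats; of these, Iars in model rats, and Aars and Eef1d in combination rats, had been called against normal rats. Between combination and model rats, Aars was at -0.017 with median-ratio scaling, and Nars at 0.012 and Sars at 0.046 without ribosomal protein, mitochondrially encoded and haemoglobin genes. The cause of these shifts was not tested. With 3 libraries a group and no read counts, members at a few TPM, such as Cars2 and Pars2, carry a counting error that could not be derived.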

Other observations

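One gene beside the synthetases varied between libraries in a way no group explains, and was picked after its values were seen. Eef1a1, the elongation factor that delivers charged tRNA to the ribosome, was listed at 12325, 10683 and 2061 TPM in combination replicates 1, 2 and 3, at 2369, 2636 and 2787 TPM in the model replicates and at 2898, 15713 and 14731 TPM in the normal replicates. The combination and normal groups each held libraries at both levels. Between model and normal rats its log2 fold change was -1.76 ± 0.76 (limma adjusted p = 0.182). This gene has near-identical copies in the genome, and how reads were divided among them was not tested.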
